A study of Mus musculus with 13 samples.

Results

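Tumor cells carry surface and secreted signals that hold back immune cells, and 6 genes of such ligands were examined in 4T1 cells, namely *Cd274*, *Lgals9*, *Pvr*, *Cd276*, *Cd47* and *Cd24a*. These 6 genes were taken by name from a set of immune checkpoint and self-signal ligands, out of 13222 genes listed, and all 6 passed the filter on low reads that left 12319 genes for testing. The comparison addressed whether the pattern of *Cd274* over the 4 conditions was shared by other inhibitory ligands. 4T1 is a BALB/c mouse mammary carcinoma cell line used as a model of triple negative breast cancer, here carrying a Thy1.1 transgene in every group. Cells grown in 12-well plates were left untreated (control, n = 3) or exposed for 48 hours to 200 ng/mL doxorubicin (DOX, n = 4), to 200 ng/mL DOX with 25 ng/mL recombinant mouse IL-17A (DOX+IL-17A, n = 3), or to IL-17A alone at 25 ng/mL (n = 3). The cultures held a single cell line and no added immune cells, and the study's methods speak of biological replicates without saying what made a replicate of these cultures separate, so p-values measure the spread between these libraries, which may in part be technical.

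Inhibitory ligands act on receptors of immune cells. *Cd274* encodes PD-L1, which binds PD-1 on T cells and is a well-known target of interferon signalling. *Lgals9* encodes galectin-9, a secreted lectin that binds TIM-3 (*Havcr2*), *Pvr* encodes CD155, which binds the inhibitory receptors TIGIT and CD96 and the activating receptor CD226, and *Cd276* encodes B7-H3, a B7 family member whose receptor is not settled. CD47 binds SIRPα (*Sirpa*) on macrophages and acts as a signal against phagocytosis, and CD24 binds sialic acid receptors of the Siglec family.

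In the GENCODE annotation of GRCm38 (mm10, the build the reads were mapped to), the 6 protein-coding genes lie on 6 chromosomes: *Cd274* at chr19:29367455-29388095 (plus strand), *Lgals9* at chr11:78962974-78984946 (minus strand), *Pvr* at chr7:19903578-19921160 (minus strand), *Cd276* at chr9:58524298-58555437 (minus strand), *Cd47* at chr16:49800533-49915010 (plus strand) and *Cd24a* at chr10:43578284-43584265 (plus strand). No stretch of 75 bases from the last 500 bases of their protein-coding transcripts occurred in a transcript of another gene, for any of the 6. Exons of *Cd274* and *Cd276* overlap genes on the opposite strand, over 511 bases for *Cd274* and 416 bases for *Cd276*. Whether counting used the strand is not given in the sources used here, so reads of these partners could not be told apart from those of *Cd274* and *Cd276*.

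The promoters of *Cd274* and *Lgals9* are shown because these were the 2 members that rose with DOX. The stretches are the bases upstream of the gene start, read 5′ to 3′ on the gene's own strand from the RefSeq promoter windows on GRCm38.p6, at chr19:29367188-29367437 (plus strand, 250 bases) for *Cd274* and chr11:78984947-78985174 (minus strand, 228 bases) for *Lgals9*. Capitals mark a match, on either strand, to the core of the interferon-stimulated response element, searched as GAAA, any 2 bases and GAAA.
Cd274: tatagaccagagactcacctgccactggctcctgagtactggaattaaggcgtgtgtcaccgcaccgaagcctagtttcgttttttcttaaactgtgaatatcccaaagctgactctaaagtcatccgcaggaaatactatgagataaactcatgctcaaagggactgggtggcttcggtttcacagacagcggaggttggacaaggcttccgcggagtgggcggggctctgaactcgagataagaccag
Lgals9: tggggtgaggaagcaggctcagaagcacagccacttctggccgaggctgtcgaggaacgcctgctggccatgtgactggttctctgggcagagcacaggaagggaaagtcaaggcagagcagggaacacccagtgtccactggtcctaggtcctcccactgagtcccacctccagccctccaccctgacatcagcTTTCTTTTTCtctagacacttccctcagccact
Over windows of 300 bases (250 before to 50 after the RefSeq start), *Lgals9* held 2 matches to this core, both on the opposite strand and not overlapping. The first was TTTCTTTTTC, which began 55 bases before the start and is the one in capitals, and the other was TTTCTGTTTC from base 16 after the start, which is not printed. Of all 32851 promoter windows in the table, 3.44% held at least 1 such match and 0.225% held 2 or more. No match stood in the windows of *Cd274*, *Cd276* or *Cd47*. The windows of these 4 genes held no match to the gamma-activated site core (TTC, any 3 bases and GAA, in 8.30% of all windows) or to an NF-kB sequence (GGGA, any 2 bases and TTCC, in 1.47%) on either strand. *Pvr* and *Cd24a* have no entry in the promoter table. A match describes letters only and was not tied to binding of any factor.

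Between 4445592 and 16930600 reads per library fell on listed genes, and 3 reads, taken as the smallest detectable amount, corresponded to values of 0.183 to 0.613. The libraries have no molecular identifiers, so this floor speaks for counting error alone. Values are the deposited TMM-normalized signal, that is read counts divided by a library size corrected for composition, and because a transcript gives a read at its 3′ end only, levels of different genes could be compared without a correction for length. All 8 mammary epithelial markers looked for were listed, and their summed value was 870 to 1143 in the 7 libraries with DOX against 1741 to 2287 in the 6 without. Of the 7 tested, 6 were lower with DOX than in control. The remaining 1, *Krt14*, was higher (mean 41.1 in control and 81.9 with DOX). Of 12 immune cell markers, 6 were listed, and their sum ranged from 19.9 to 21.7 in control, 26.0 to 70.3 with DOX, 38.8 to 63.8 with DOX+IL-17A and 14.1 to 21.5 with IL-17A. *Ptprc*, the common leukocyte marker, was at most 1.52 in control and at most 1.42 with DOX. It was 2.45 to 3.57 with DOX+IL-17A and at most 0.314 with IL-17A. The immune markers did not all move together. For DOX+IL-17A against DOX the log2 fold change was 0.95 for *Ptprc*, 1.31 for *Cd14* and -1.65 for *Csf1r* (limma). *Csf1r* was the 1 negative estimate among 5 tested, and 0 of the 5 were called. *Cd3e*, *Ms4a1*, *Itgax*, *Lyz2* and *Nkg7* were among the markers not analysed here. For stroma, endothelium, muscle and red cell markers, 8 of 12 were listed, and the sum was 172 in DOX replicate 1, 122 in control replicate 1 and 26.6 to 59.3 in the other 11 libraries. The part of these differences in the results that follow was not tested, and in bulk RNA fewer cells of a kind and less RNA per cell cannot be told apart.

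*Cd47* was the most abundant of the 6 ligands in control cells and *Cd274* the least (mean normalized values). Mean values in control were 200.6 for *Cd47*, 41.1 for *Lgals9*, 35.9 for *Pvr*, 25.8 for *Cd276*, 19.9 for *Cd24a* and 1.55 for *Cd274*. The ranges of *Lgals9* and *Pvr* overlapped in control, and every other neighbouring pair in this order was separate. *Cd274* rested on 9 to 30 reads per control library, the fewest of the 6, whereas *Cd47* rested on 1402 to 2610. With DOX the order became *Lgals9* (128), *Cd47* (123), *Pvr* (54.3), *Cd276* (33.6), *Cd274* (25.0) and *Cd24a* (22.4). *Lgals9* and *Cd47* overlapped there, as did *Cd276* with *Cd274* and *Cd274* with *Cd24a*, while *Pvr* stood apart from both neighbours. *Cd274* mean level thereby moved from above 17.3% of listed genes in control to above 56.4% with DOX, *Lgals9* from above 67.9% to above 88.0%, and *Cd47* from above 92.6% to above 87.6%. With DOX+IL-17A the order was *Cd47* (99.3), *Lgals9* (57.7), *Pvr* (52.8), *Cd24a* (35.6), *Cd276* (26.0) and *Cd274* (6.70), with overlap of *Lgals9* and *Pvr* and of *Pvr* and *Cd24a*. With IL-17A alone it was *Cd47* (189), *Pvr* (39.0), *Cd276* (30.1), *Lgals9* (27.5), *Cd24a* (19.9) and *Cd274* (2.70), where the 4 genes in the middle each overlapped the next.

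**Figure D1:**
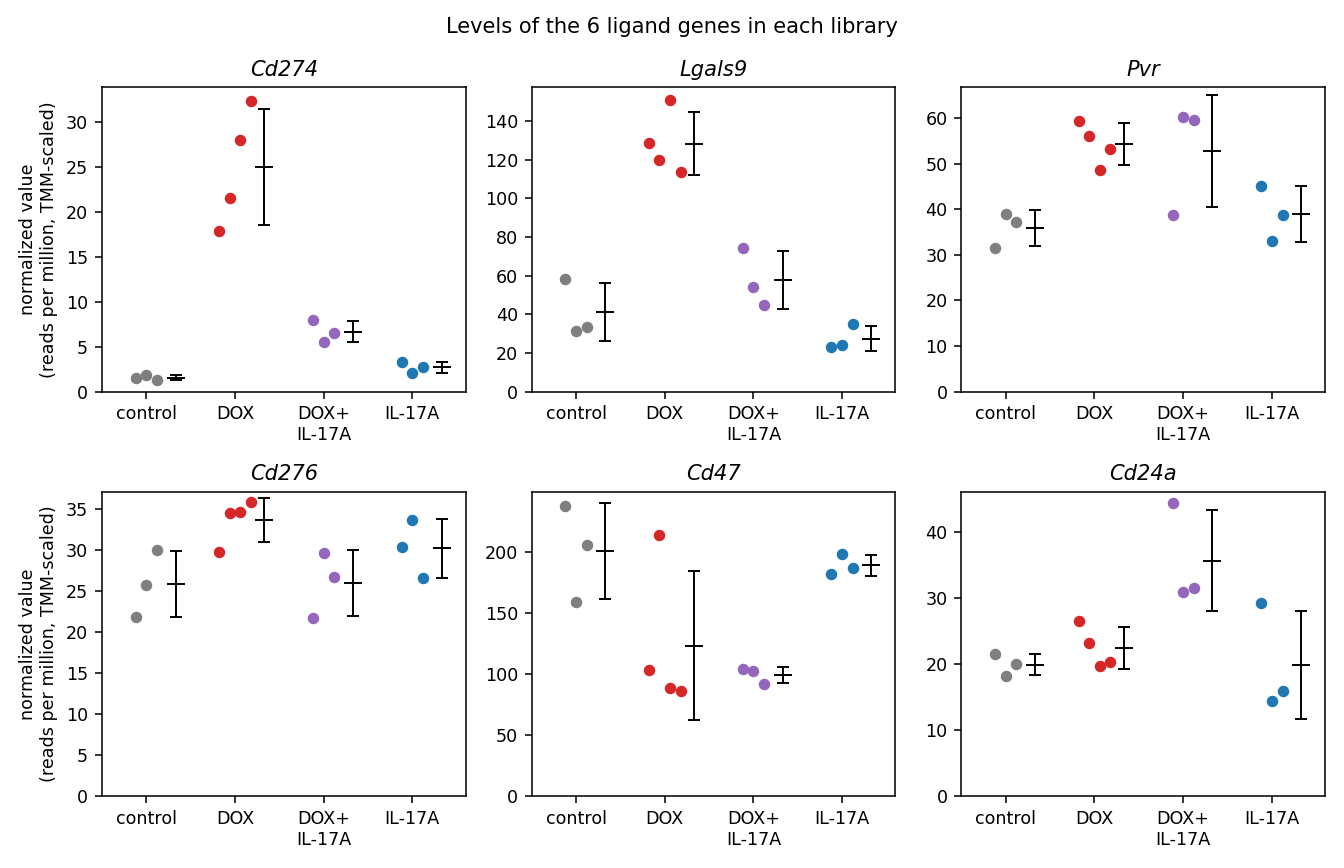
Normalized value (TMM-scaled reads, linear axis from 0) of each ligand gene in each of 13 libraries by group. Points are libraries, and the bar and whiskers beside them are the mean and SD (n = 3 or 4). *Cd274* and *Lgals9* were highest in the 4 DOX libraries, *Cd47* was low in the libraries with DOX other than DOX replicate 2 at 214, and *Cd24a* was highest in the 3 DOX+IL-17A libraries.

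DOX raised 2 of the 6 ligands, *Cd274* and *Lgals9*, and the other 4 were not called. Among all tested genes, 9.15% were higher with DOX and 6.18% lower by limma with both thresholds (adjusted p below 0.05, more than 2-fold), against 2 and 0 of the 6 members. At the adjusted p alone, 3 members were called, where 22.1% of all genes were. With libraries scaled by size alone the median log2 fold change of all genes moved from 0.09 to 0.24 and the calls from 1127 up and 761 down to 1516 up and 488 down, and the members called remained *Cd274* and *Lgals9*. *Cd274* was 1.52, 1.83 and 1.30 in control and 17.9, 21.6, 28.1 and 32.4 with DOX. The lowest DOX library was far above the highest control library, and the log2 fold change was 3.32 ± 0.30 (SE, adjusted p = 8.4e-06, limma). On the linear scale the means differed 16.1-fold, and the log2 value understates the change because 1 was added to each value.

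*Lgals9*, the galectin-9 gene, was the other member that rose. It stood at 58.4, 31.6 and 33.2 in control and at 129, 120, 151 and 113 with DOX. The DOX libraries were all above the control libraries, of which replicate 1 was the high one. The log2 fold change was 1.67 ± 0.25 (SE, adjusted p = 0.00052, limma), and the call held under each of 9 alternative settings (1.60 to 1.84) and without any one of the 13 libraries (1.51 to 1.94). *Lgals9* ranked 174 by p among all tested genes and *Cd274* ranked 14.

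*Pvr*, the CD155 gene, was 31.5, 39.0 and 37.2 in control and 59.3, 56.1, 48.5 and 53.3 with DOX. Its groups did not overlap, which was so for 33.7% of all genes in either direction. The log2 fold change of 0.59 (95% confidence interval 0.13 to 1.04) had an adjusted p of 0.062 by limma and was not called. It passed in a few alternatives, with adjusted p-values from 0.017 to 0.12 over 9 settings and 0.043 without DOX+IL-17A replicate 2. *Cd276*, the B7-H3 gene, was 21.8, 25.8 and 29.9 in control and 29.7, 34.5, 34.5 and 35.8 with DOX. The highest control library lay just above the lowest DOX library, and the log2 fold change was 0.38 (95% confidence interval -0.08 to 0.83, adjusted p = 0.22, limma).

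Neither self-signal gene was called higher with DOX. *Cd47* was 237, 159 and 206 in control and 104, 214, 88.8 and 86.4 with DOX. DOX replicate 2 was within the control range and the other 3 DOX libraries were below it. The log2 fold change of -0.79 (SE 0.27) had an adjusted p of 0.045 by limma, under the fold threshold. Without DOX replicate 2 it was -1.09 with an adjusted p of 0.0029. The call at the adjusted p alone was lost in 5 of 9 settings, with adjusted p-values of 0.051 to 0.10, and without 10 of the 13 libraries taken singly, with adjusted p-values of 0.052 to 0.13. It was kept without DOX replicate 2, control replicate 3 or IL-17A replicate 5. *Cd24a* was 21.5, 18.2 and 20.04 in control and 26.6, 23.2, 19.7 and 20.3 with DOX. These ranges overlapped, with a log2 fold change of 0.16 (95% confidence interval -0.41 to 0.73, adjusted p = 0.70, limma).

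Adding IL-17A to DOX lowered *Cd274*, and *Lgals9* moved the same way without passing the test. Of all genes, 0.438% were called in this comparison with both thresholds (0.325% lower, 0.114% higher), against 1 member, *Cd274*. The libraries of both groups did not overlap for 4 members (*Cd274*, *Lgals9*, *Cd276* and *Cd24a*) and for 10.3% of all genes. *Cd274* was 7.98, 5.56 and 6.55 with DOX+IL-17A, below every DOX library, with a log2 fold change of -1.73 ± 0.30 (SE, adjusted p = 0.018, limma). With the replicate block the log2 fold change was -1.66 and no longer called (adjusted p = 0.14), and a pseudocount of 0.1 also ended the call (0.055). The adjusted p was above the threshold without DOX replicate 3 (0.099), DOX replicate 4 (0.11) or DOX+IL-17A replicates 2, 3 or 5 (0.052, 0.13 and 0.0753).

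*Lgals9* was 74.4, 54.1 and 44.7 with DOX+IL-17A. All 3 values lay below the lowest DOX value of 113, and the highest also exceeded every control value. The log2 fold change was -1.16 ± 0.25 (SE, adjusted p = 0.068, limma). It was past the threshold with voom and limma (adjusted p = 0.030), DESeq2 (0.011), a fit restricted to these groups (0.011) and without control replicate 1 (0.0090), and over the other settings the adjusted p reached 0.28. *Cd274* and *Lgals9* were the members whose DOX libraries were all above control and whose DOX+IL-17A libraries were all below DOX, a pattern found in 292 of 12319 genes (2.37%). The DOX+IL-17A libraries of *Cd274* were in addition all above control, which held for 95 genes (0.771%).

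None of the other 4 ligands passed the test in this comparison. *Cd276* was 21.7, 29.6 and 26.7 with DOX+IL-17A, all below the lowest DOX value of 29.7 and the highest of them only just, with a log2 fold change of -0.37 (95% confidence interval -0.83 to 0.09, adjusted p = 0.95, limma). *Pvr* was 38.6, 60.3 and 59.5, a log2 fold change of -0.06 (95% confidence interval -0.52 to 0.39). Of the difference in mean *Pvr* value between DOX and control, 91.9% was present with DOX+IL-17A, against 22.0% for *Cd274* and 19.2% for *Lgals9*. Without any one library these shares ranged from 71.6 to 130.4% for *Pvr* (lowest without DOX+IL-17A replicate 3 and highest without DOX+IL-17A replicate 2), from 19.2 to 24.5% for *Cd274* and from 9.57 to 26.7% for *Lgals9*. *Cd47* was 104, 102 and 91.6, a log2 fold change of -0.20 (95% confidence interval -0.77 to 0.36). Without DOX replicate 2 the *Cd47* value was 0.10.

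The *Cd24a* estimate was of the opposite sign to that of *Cd274*. *Cd24a* was 44.4, 30.9 and 31.5 with DOX+IL-17A, above all 4 DOX libraries and all 3 control libraries. Against DOX the log2 fold change was 0.63 ± 0.27 (SE, adjusted p = 0.70, limma), and against control it was 0.79 (adjusted p = 0.068, limma). Neither was called. The value against control passed the adjusted p alone with DESeq2 (0.044), with scaling by library size (0.027) and without IL-17A replicate 2 (0.045), and groups did not overlap in this comparison for 30.1% of all genes.

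Relative to control, DOX+IL-17A left 1 member called, *Cd274* (log2 fold change 1.59, standard error 0.32, adjusted p = 0.0043, limma), where 12.9% of all genes were called. *Cd47* was lower in all 3 libraries, with a log2 fold change of -0.99 (SE 0.28) and an adjusted p of 0.026 by limma, just under the fold threshold, and 17.7% of all genes passed the adjusted p alone. That adjusted p rose to 0.074 without control replicate 5 and to 0.059, 0.065 and 0.068 without DOX+IL-17A replicates 2, 3 and 5, and it was 0.051 with scaling by library size and 0.052 with only the groups compared. *Lgals9* differed by 0.51 (95% confidence interval -0.07 to 1.08, adjusted p = 0.21, limma), and by 0.78 without control replicate 1 (adjusted p = 0.035). The log2 fold change of *Pvr* was 0.52 (adjusted p = 0.13, limma) and that of *Cd276* 0.01 (95% confidence interval -0.48 to 0.50).

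**Figure D2:**
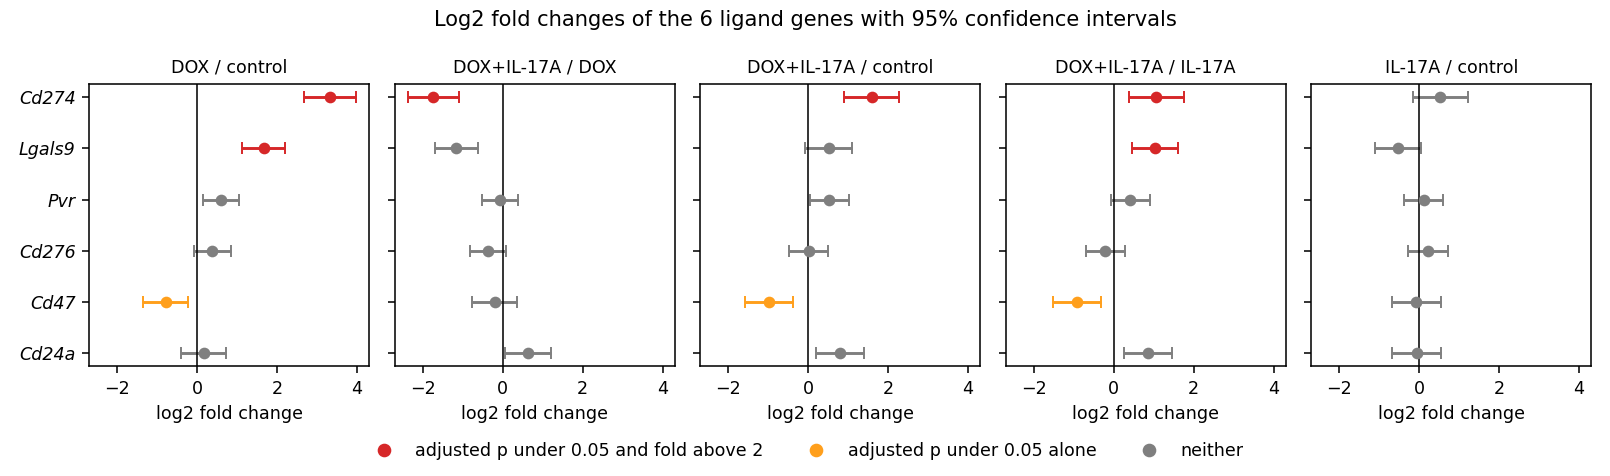
Log2 fold changes (x axis, from log2 of value + 1) of the 6 ligand genes in 5 comparisons, with whiskers for the 95% confidence interval of the limma fit (13 libraries). Red points passed adjusted p under 0.05 and a fold above 2, orange points the adjusted p alone. *Cd274* and *Lgals9* are the red points for DOX against control, at 3.32 and 1.67, and *Cd47* is orange in each comparison of a DOX-treated group with a group without DOX.

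IL-17A alone did not change any of the 6 ligands detectably. No member was called by limma, none reached an unadjusted p of 0.05 (3.08% of all genes did), and the alternatives, DESeq2 and edgeR among them, called none either, while 1 gene (0.00812%) was called among all 12319. *Cd274* was 3.27, 2.04 and 2.79, all above control, and groups did not overlap for 6.04% of all genes. Its log2 fold change was 0.53 (95% confidence interval -0.16 to 1.22, adjusted p = 0.96, limma). *Lgals9* was 23.3, 24.4 and 34.8, a log2 fold change of -0.53 (95% confidence interval -1.11 to 0.05), so these ligands had point estimates of opposite sign. *Cd47* was 181, 198 and 187, *Pvr* 45.2, 33.0 and 38.8, *Cd276* 30.3, 33.6 and 26.5, and *Cd24a* 29.3, 14.5 and 15.9. The log2 fold changes of these 4 genes lay between -0.07 and 0.22, and their values overlapped with control.

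Compared with IL-17A alone, cells given DOX+IL-17A had higher *Cd274* and *Lgals9*. Their log2 fold changes were close to each other, 1.06 for *Cd274* (SE 0.32, adjusted p = 0.042, limma) and 1.04 for *Lgals9* (SE 0.27, adjusted p = 0.021), and these 2 members were called where 9.84% of all genes were. The 1 added to each value lowers the *Cd274* estimate more, as its values were low. On the linear scale the means differed 2.48-fold for *Cd274* and 2.10-fold for *Lgals9*. Same-numbered libraries of these 2 groups deviated together, and in a fit that blocked on this number *Lgals9* stayed called (adjusted p = 0.027) and *Cd274* did not (0.052). The *Cd274* call was also lost with voom and limma (adjusted p = 0.11), with only the groups compared (0.092) and without 11 of the 13 libraries taken singly (0.053 to 0.16), and it held without control replicate 1 or DOX replicate 1. *Lgals9* was no longer called without DOX+IL-17A replicates 2 or 3 (adjusted p = 0.090 and 0.054) or IL-17A replicates 2 or 3 (0.067 and 0.083), and with voom and limma it passed the adjusted p (0.036) just under the fold threshold (0.99). *Cd47* differed by -0.92 (SE 0.28, adjusted p = 0.043, limma, and 0.034 with the block), where 13.3% of all genes passed the adjusted p alone, and this was lost with edgeR (0.058), with scaling by library size (0.0996) and without 9 of the 13 libraries taken singly (0.051 to 0.13). *Cd24a* differed by 0.86 (adjusted p = 0.060, and 0.041 with the block). It was called with scaling by library size (1.07, adjusted p = 0.019) and without IL-17A replicate 2 (1.16, adjusted p = 0.019), and passed the adjusted p alone with DESeq2 (0.042) and without control replicate 1 (0.035).

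Whether IL-17A acted differently with DOX than without was tested as an interaction. Of the members and of all genes 0 (0%) passed by limma, with 4.51% of genes at an unadjusted p under 0.05 and 1 member, *Cd274*. The difference for *Cd274* was -2.26 on the log2 scale (SE 0.44, adjusted p = 0.25, limma), the fifth smallest p of 12319. DESeq2 gave it an adjusted p of 0.0052 and called 18 genes, and edgeR's quasi-likelihood test called none (0.26 for *Cd274*). For *Lgals9* the difference was -0.63 (95% confidence interval -1.42 to 0.16), for *Cd276* -0.59 (-1.26 to 0.08), for *Cd24a* 0.70 (-0.13 to 1.53), for *Pvr* -0.17 (-0.84 to 0.49) and for *Cd47* -0.13 (-0.96 to 0.70).

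The *Cd274* pattern was then set against each other ligand within the same library, as log2(value + 1) of *Cd274* minus that of the other gene. From control to DOX this difference grew by 1.66 against *Lgals9*, 2.74 against *Pvr*, 2.95 against *Cd276*, 3.16 against *Cd24a* and 4.11 against *Cd47*. In all 5 the DOX libraries were separate from the control libraries, and the 2-sided exact permutation test gave p = 0.057, the smallest that 4 against 3 libraries allow. From DOX to DOX+IL-17A the difference shrank by values of -0.57 against *Lgals9*, -1.37 against *Cd276*, -1.53 against *Cd47*, -1.67 against *Pvr* and -2.36 against *Cd24a*. The libraries overlapped for *Lgals9* (exact permutation p = 0.11) and were separate for the other 4 (p = 0.057, adjusted p = 0.071 over 5 members). Over all 7 libraries with DOX against all 6 without, *Cd274* gained on every other ligand, by 0.88 against *Lgals9* (exact permutation p = 0.020, adjusted p = 0.020), 1.81 against *Pvr* (adjusted p = 0.0019), 1.85 against *Cd24a* (0.0058), 2.21 against *Cd276* (0.0019) and 3.15 against *Cd47* (0.0019). The estimated rise of *Lgals9* was thus smaller than that of *Cd274*. The only permutation p under 0.05 for this pair came from the pooled contrast, which mixes libraries with and without IL-17A. DOX against control alone could not go below 0.057 in this test.

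**Figure D3:**
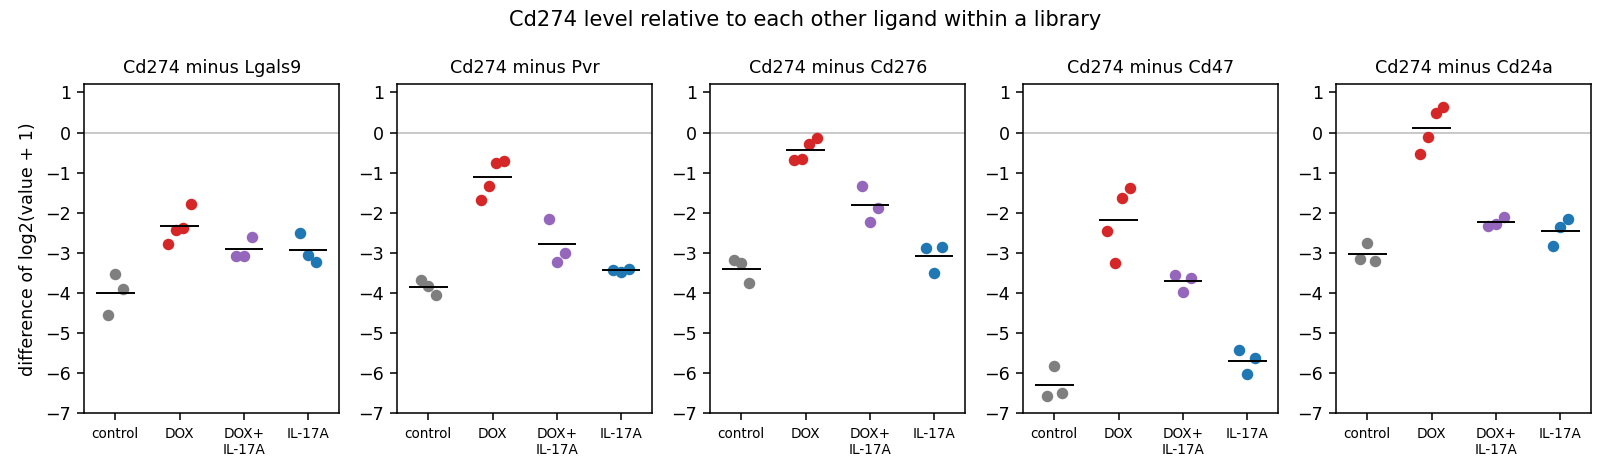
Within-library difference between *Cd274* and each other ligand gene (y axis, difference of log2(value + 1)), by group. Points are libraries and lines are group means. The DOX libraries stand above the control libraries in all 5 panels, and the DOX+IL-17A libraries overlap the DOX libraries only against *Lgals9*.

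Over the 13 libraries, the genes whose pattern was most like that of *Cd274* were known interferon-inducible genes, ahead of every other ligand. Likeness was the root mean square difference between log2 values centred on each gene's mean, ranked over 12318 genes. The nearest were *Phf11d* (0.26), the guanylate-binding protein genes *Gbp4* (0.31), *Gbp10* (0.33) and *Gbp6* (0.36), and *Irf7* (0.31), an interferon regulatory factor gene. *Lgals9* ranked 85 (difference 0.69, within the first 0.690% of genes) and *Pvr* ranked 2236, *Cd276* 3678, *Cd24a* 4868 and *Cd47* 10870. Without control replicate 1, *Lgals9* ranked 42. *Gbp4* had mean values of 16.0 ± 3.47 in control, 165 ± 42.4 with DOX and 47.7 ± 3.64 with DOX+IL-17A (SD, n = 3, 4 and 3), and *Irf7* of 9.56 ± 3.18, 98.9 ± 38.9 and 25.0 ± 5.34. This measure is a description, and the points share the same libraries and scaling.

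**Figure D4:**
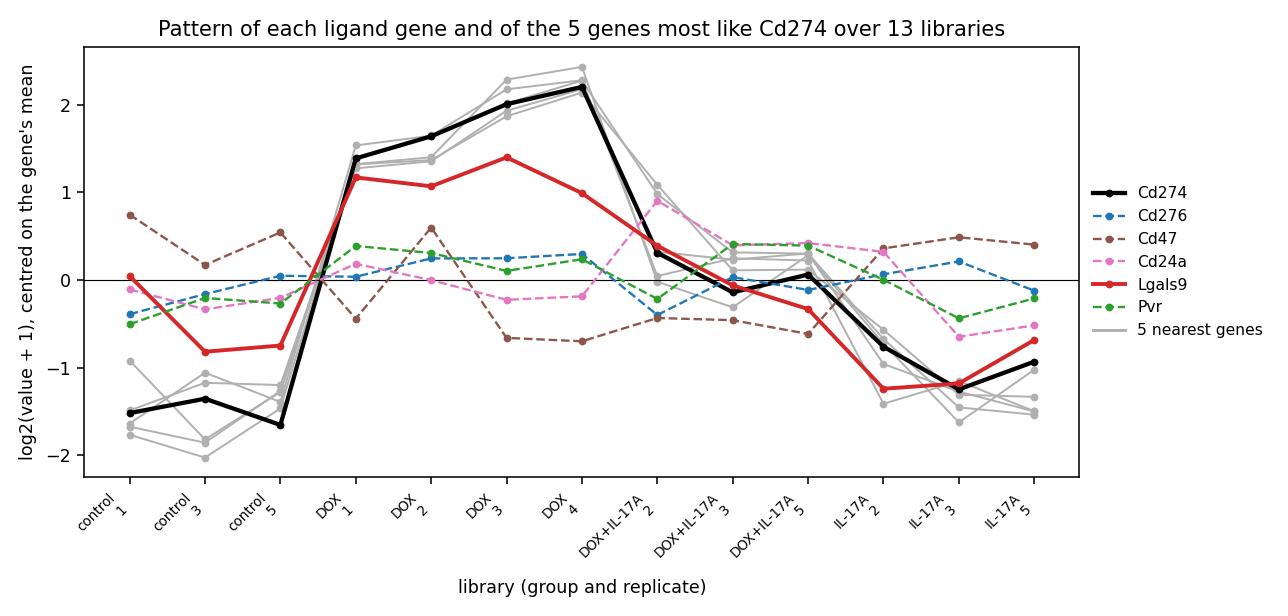
Log2(value + 1) of the 6 ligand genes and of the 5 genes nearest to *Cd274* (grey), each centred on its own mean (y axis), in the 13 libraries (x axis). *Cd274* and the grey lines run together, *Lgals9* follows with a smaller span, and the dashed lines of the other 4 ligands do not.

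Other genes of the pathway were read from lists. Of 26 interferon-stimulated genes, 25 were called higher with DOX and 0 lower (9.15% and 6.18% of all tested genes), with a median log2 fold change of 2.94 against 0.09 over all of them, led by *Isg15* (4.52) and *Ifi44* (4.46). The exception, *Ddx58*, an RNA sensor gene, passed the adjusted p alone (0.98). With DOX+IL-17A against DOX, 16 of 26 were lower, where 0.325% of all genes were (median -1.72, against -0.03 over all genes), among them *Rsad2* (-2.51) and *Isg15* (-2.33). This count was 6 without DOX+IL-17A replicate 2, 4 without DOX replicate 3, 2 without DOX replicate 4 or DOX+IL-17A replicate 5, and 0 without DOX+IL-17A replicate 3, and 5 with a replicate block. The *Lgals9* values of 1.67 and -1.16 were smaller in size than these medians, and the *Cd274* values of 3.32 and -1.73 were at or above them.

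Of 18 tested genes of interferon signalling and PD-L1 regulation, 4 rose with DOX and 0 fell (9.15% and 6.18% of all genes). Among them were *Stat2* (log2 fold change 1.83, adjusted p = 0.00025, limma), which carries the interferon signal to the nucleus, *Socs1* (2.10), which restrains it, and *Ifngr2* (1.28), a chain of the interferon-gamma receptor. With DOX+IL-17A against DOX, *Stat2* (-1.33) fell and *Socs1* differed by -0.22 and was not called. The *Stat2* call was lost with edgeR, with a pseudocount of 0.1 and with the replicate block. Among fits without one library, it was lost at least without DOX+IL-17A replicate 3, where 0 of all genes were called lower. *Irf1*, the factor through which interferon-gamma acts on *Cd274*, differed by 0.41 with DOX (adjusted p = 0.18), and *Cmtm6*, which keeps PD-L1 on the cell surface, by 0.16 (adjusted p = 0.76).

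Of 24 other checkpoint ligands looked for, 12 were listed and tested, and *Pdcd1lg2*, the PD-L2 gene, was among those not analysed here. Of these 12, 0 rose and 2 fell with DOX, where 9.15% of all genes rose and 6.18% fell. The 2 that fell were *Nectin4* (log2 fold change -2.17, adjusted p = 0.00083, limma) and *Vsir* (-1.74, adjusted p = 0.031), the gene of the checkpoint protein VISTA. Galectin genes *Lgals1* (-0.17) and *Lgals3* (0.04) and the *Pvr* relative *Nectin2* (0.31) did not pass, unlike *Lgals9*. None of the 12 was called for DOX+IL-17A against DOX, and their median there was 0.08.

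Of 12 genes of phagocytosis and complement signals, 2 rose and 1 fell with DOX, counts near the 9.15% and 6.18% of all genes. *Calr*, which encodes calreticulin, an eat-me signal at the surface of dying cells, rose from a mean of 46.3 ± 5.12 to 150 ± 34.1 (SD, n = 3 and 4), or by 1.66 on the log2 scale (adjusted p = 0.00070, limma), while *Cd47* stood at -0.79. *Lrp1*, the calreticulin receptor gene, fell (-1.17, adjusted p = 0.015). *Siglecg*, a receptor gene of CD24, rose (2.40, adjusted p = 0.0027), and so did *Havcr2*, the TIM-3 gene (1.91, adjusted p = 0.028). These 2 were the receptors called among 4 tested, of 8 looked for, at mean values with DOX of 9.35 and 11.8. *Siglecg* and *Sirpa* stand in both lists, so *Siglecg* is also 1 of the 2 phagocytosis and complement genes that rose. *Sirpa* (0.70) and *Tigit* (0.92) did not pass. *Ulbp1*, a ligand of the activating receptor NKG2D, was the 1 called of 3 tested (1.08, adjusted p = 0.029). None of the genes in these 3 lists was called for DOX+IL-17A against DOX. Of the 4 receptors, 3 were lower there and 1 higher. *Siglecg* differed by -1.73 (adjusted p = 0.21, limma), with values of 0.894 to 4.50 against 7.97 to 10.2 with DOX.

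**Figure D5:**
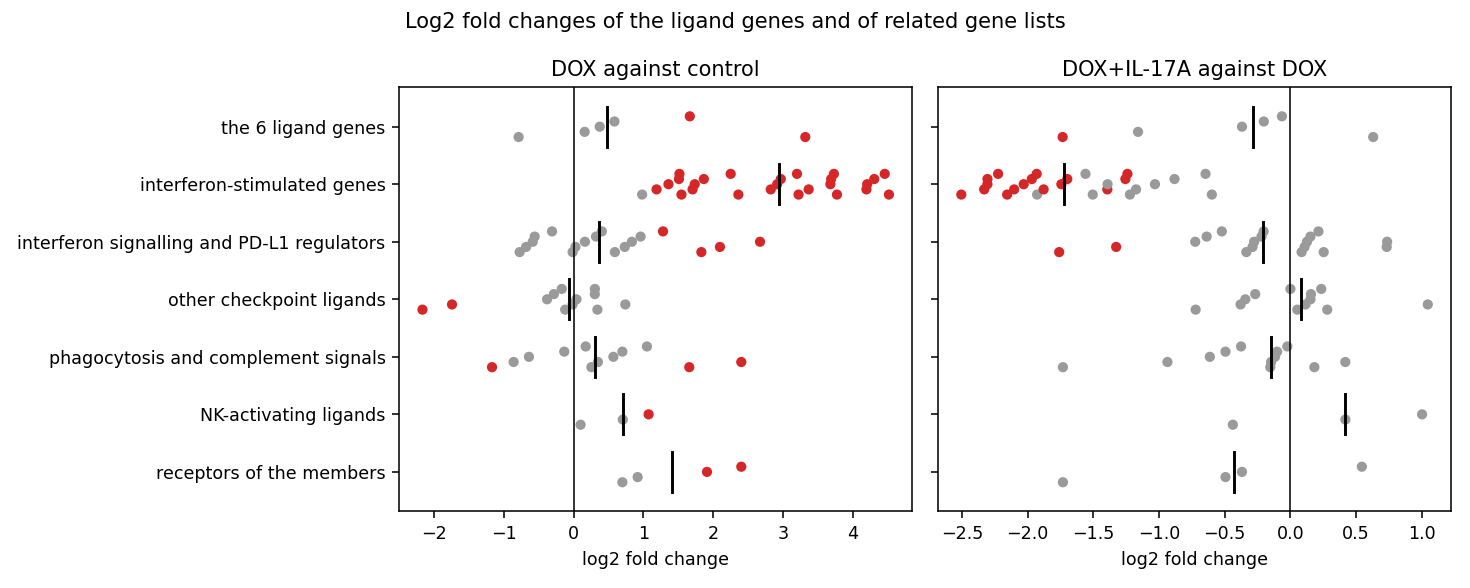
Log2 fold changes (x axis) of the 6 ligand genes and of 6 related gene lists for DOX against control (left) and DOX+IL-17A against DOX (right). Points are genes, red where adjusted p was under 0.05 and the fold above 2, and black lines are medians. The interferon-stimulated genes have medians of 2.94 and -1.72, and 2 of the 6 ligand genes (left) and 1 (right) are red.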

How the data were processed

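The 6 genes, the gene lists and the tests were chosen with earlier results of these data known. According to the study's methods and the submitters' processing notes, the authors checked reads of 3′ mRNA libraries with FastQC, trimmed them with Trimmomatic, mapped them with STAR to mm10, counted them per gene with featureCounts and normalized the counts by TMM. The deposited table holds the resulting signal for each gene and library, and the table's gene filter is not given in the sources used here. A second, identical entry for *Ifit1* was dropped, which left 13222 genes, of which 17 had names turned into dates. All values (100%) were whole multiples, within 0.1 reads, of the value of 1 read in their library, so whole reads were recovered for the alternatives on counts. Libraries were grouped by their labels, and replicates differed by more than sampling noise (chi-square per degree of freedom 7.89 to 186).

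Log2(value + 1) was fitted with limma and a variance trend for all 13 libraries by group, over 12319 genes kept by filterByExpr of edgeR. P-values were Benjamini-Hochberg adjusted over all genes tested. A call needed an adjusted p below 0.05 with more than a 2-fold change, and for the interaction only the former. Within-library differences between *Cd274* and each other ligand were compared between groups by 2-sided exact permutation tests. Named genes were the 6 ligands, the 5 genes nearest to *Cd274*, and up to 4 called genes a list in each direction, with receptors and markers on which a result turned. *Irf1*, *Cmtm6*, *Lgals1*, *Lgals3*, *Nectin2*, *Csf1r*, *Cd14* and *Krt14* were added after their values were seen. Alternatives were voom with limma, edgeR's quasi-likelihood test and DESeq2 on recovered reads, scaling by library size, a pseudocount of 0.1, no filter or one at a mean of 10 reads, a replicate block, fits of only the groups compared, calls without the fold threshold, and leaving out each library. The steps were tested on simulated data. Some listed genes are not reported here.

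The labels give groups the same replicate numbers. Same-numbered libraries deviated from their group means with correlations of -0.185 to 0.515 over genes (13 pairs, median 0.184, 8 above 0.1). Different-numbered libraries of different groups had correlations of -0.585 to 0.486 (50 pairs, median -0.0287, 15 above 0.1). Same-numbered libraries thus tended to deviate together, though not in every pair, and the main fit did not use the numbers. Replicates 2 and 3 of DOX and DOX+IL-17A correlated at 0.313 and 0.0618. For DOX+IL-17A and IL-17A all 3 pairs were above 0.1 (0.184, 0.226 and 0.372). The blocked values stand beside that comparison, and beside *Cd274* for DOX+IL-17A against DOX. Fits were run in R 4.3.3 with DESeq2 1.42.0, edgeR 4.0.16 and limma 3.58.1, and the rest in python 3.11.15 with scipy 1.17.1, pandas 2.3.3, numpy 2.4.6 and matplotlib 3.10.9.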

Additional observations from a re-analysis of the deposited data

Results flagged for a closer look

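*Cd47* in DOX replicate 2 was 214, against 86.4 to 104 in the other 3 DOX libraries and 159 to 237 in control. Its gap to the nearest DOX library was large relative to the range of the group by Dixon's criterion for 4 libraries. The 6 members were each tested in the DOX group, and chance marks about 1 in 20 groups. Without this library the *Cd47* log2 fold change for DOX against control was -1.09 (adjusted p = 0.0029, limma) in place of -0.79 (0.045).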

How the results depend on the processing

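*Cd274* and *Lgals9* stayed called for DOX against control under every alternative and without any one library. The other counts of members called were less firm. For DOX+IL-17A against DOX the count of 1 became 2 with voom and limma, with DESeq2 and with only the groups compared, and 0 with a pseudocount of 0.1 and with the replicate block, and it ranged from 0 to 2 without one library (2 without control replicate 1, 0 without DOX replicates 3 or 4 or any DOX+IL-17A library). For DOX+IL-17A against control the count of 1 became 2 at the adjusted p alone, with edgeR, with DESeq2 and with the replicate block, and ranged from 1 to 2 without one library (2 without control replicate 3). For DOX+IL-17A against IL-17A the count of 2 became 0 with voom and limma, 1 with only the groups compared, 1 with the replicate block, 3 at the adjusted p alone and 3 with scaling by library size, and ranged from 0 to 2. For the interaction, 0 became 1 with DESeq2. For IL-17A against control the count was 0 in all of these.

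Signs differed only for values that were not called. *Cd276* was -0.00385 with DESeq2 and -0.0502 with the replicate block for DOX+IL-17A against control (-0.10 to 0.13 without one library), and 0.00163 with scaling by library size for DOX+IL-17A against IL-17A. Without one library, *Cd47* ranged from -0.33 to 0.10 and *Pvr* from -0.17 to 0.14 for DOX+IL-17A against DOX, *Cd47* from -0.23 to 0.0605 and *Cd24a* from -0.37 to 0.12 for IL-17A against control, and, in the interaction, *Cd47* from -0.27 to 0.17 and *Pvr* from -0.29 to 0.0317. The cause was not tested. By deviations from group means, 7 of 12 libraries correlated best with a library of their own replicate number. Depth limits *Cd274* most, with 9 to 30 reads per control library.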
